A study of Mus musculus with 6 samples.

Results

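Matrix Gla protein (Mgp) and 9 other extracellular matrix genes (Dcn, Col1a1, Col1a2, Col3a1, Sparc, Bgn, Lum, Fn1 and Spp1) were examined in bone marrow-derived macrophages (BMDMs) with and without zoledronic acid (ZA). They were taken by gene symbol from the 35246 genes that could be read from the deposited table. The first 8 are matrix genes typical of stromal cells such as fibroblasts and osteoblasts, while Fn1 and Spp1 are matrix genes that macrophages can also make. Mgp and Dcn were chosen by their FPKM values in these libraries, which were lower with ZA, so their difference between the groups is given as a description without a test. ZA is a bisphosphonate, a drug that holds back bone resorption, and the study asked what it does to macrophages. The 3 Ctrl libraries came from BMDMs without ZA and the 3 ZA libraries from BMDMs 12 h after ZA stimulation. Both groups were grown from the femur marrow of C57BL/6 mice in 10 ng per ml of M-CSF for 7 days. The age of the marrow donors and the ZA concentration are not named for these libraries in the sources used here, nor whether same-numbered libraries came from 1 animal, so p-values measure only the spread between these libraries.

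The extracellular matrix is built from fibrillar collagens, to which small leucine-rich proteoglycans such as decorin (Dcn), biglycan (Bgn) and lumican (Lum) bind. Mgp is a small vitamin K-dependent protein that is gamma-carboxylated, holds back calcification of soft tissue and binds bone morphogenetic proteins. Stromal cells of the marrow lay down most of this matrix, and adherent marrow cultures grown in M-CSF can keep some of them beside the macrophages. Fibronectin (Fn1) and osteopontin (Spp1) are adhesive glycoproteins bound by integrins, and both are made by macrophages as well as by stromal and bone cells.

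Levels are given as FPKM, the fragments of a gene scaled by its length and by the total of its library, so that levels can be compared between genes. The library totals were between 41230600 and 42155808 fragments. Of the 10 genes, 9 passed the filter of a mean of at least 1 FPKM over the 6 libraries, as did 9753 genes in all, and Lum did not. Over the tested genes limma on log2(FPKM + 1) with Benjamini-Hochberg adjustment called 36 genes at an adjusted p-value under 0.05, 0.369% of those tested, with 16 lower and 20 higher in ZA. In the 6 libraries all 15 listed macrophage markers were above 1 FPKM, with Lyz2, which encodes lysozyme, at 22474 ± 1968 FPKM in Ctrl (SD, n = 3). Some fibroblast markers were detected at low levels, with Pdgfra, a receptor of platelet-derived growth factor, between 0.374 and 1.12 FPKM and Cdh11, a cadherin of mesenchymal cells, between 1.42 and 2.65 FPKM. Others were all but absent, with Tcf21 at 0 in all 6 libraries and Lepr and Dpt at no more than 0.0127 and 0.0142 FPKM. Of 30 listed stromal markers that are not matrix genes, 10 passed the filter.

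Sequence upstream of the start site was at hand for 5 of the 10 genes, and it is shown because most of the collagens, proteoglycans and matricellular genes below varied together over the libraries while Spp1 did not. The 150 bases before the RefSeq start site (GRCm38.p6) run 5′ to 3′ on the gene's strand, and capitals mark a TATAAA box, a CCAAT box or a GGGCGG box on either strand. In Bgn and Spp1 the capitals are the reverse complement of the box, and the last 2 boxes of Bgn overlap. Spp1 has 2 start sites in the table, and the upstream one is shown.
Col1a2, chr6:4505468-4505617, plus strand: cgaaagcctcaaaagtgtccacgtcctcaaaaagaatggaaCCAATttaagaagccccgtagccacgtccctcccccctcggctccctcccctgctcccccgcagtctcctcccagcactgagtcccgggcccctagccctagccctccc
Col3a1, chr1:45311388-45311537, plus strand: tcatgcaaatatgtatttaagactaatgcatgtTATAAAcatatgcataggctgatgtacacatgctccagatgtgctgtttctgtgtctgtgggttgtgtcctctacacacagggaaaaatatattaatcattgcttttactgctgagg
Sparc, chr11:55420081-55420230, minus strand: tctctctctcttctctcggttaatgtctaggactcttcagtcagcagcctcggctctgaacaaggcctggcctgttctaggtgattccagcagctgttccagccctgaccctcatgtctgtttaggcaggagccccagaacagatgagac
Bgn, chrX:73483451-73483600, plus strand: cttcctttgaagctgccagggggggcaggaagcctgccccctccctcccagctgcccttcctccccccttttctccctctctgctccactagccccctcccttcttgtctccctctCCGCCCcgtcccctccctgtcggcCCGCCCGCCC
Spp1, chr5:104434961-104435110, plus strand: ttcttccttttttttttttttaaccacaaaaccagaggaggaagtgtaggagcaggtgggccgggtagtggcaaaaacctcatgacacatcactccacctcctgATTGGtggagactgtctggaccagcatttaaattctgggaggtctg
Over the same window of all 32851 start sites, 7.57% held TATAAA, 24.5% held CCAAT and 28.6% held GGGCGG. Each motif was in the window of 1 or 2 of the 5 genes, none of them was in that of Sparc, and no motif was in the windows of all 5. A match is a run of letters and not a known binding site, and the build of this sequence (GRCm38.p6) is not the mm9 named in the submitters' processing notes.

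Mgp had the widest relative gap between the groups. It was at 5.72, 3.002 and 3.38 FPKM in Ctrl 1, 2 and 3 and at 1.81, 2.18 and 2.04 FPKM in ZA 1, 2 and 3, from 77 to 147 fragments in Ctrl and 46 to 56 in ZA. The groups did not overlap, and the ZA mean was 49.8% of the Ctrl mean (2.01 ± 0.189 against 4.03 ± 1.47 FPKM, SD, n = 3). Over all tested genes, 18.1% had groups without overlap, and 6.77% had all ZA libraries below all Ctrl libraries, and since Mgp was picked for this contrast, nothing follows from its place among them. Its log2 fold change on log2(FPKM + 1) was -0.71 ± 0.17 (SE), which understates the change of a gene at so low a level. Ctrl 1 stood well above the other Ctrl libraries, and without it the log2 fold change was -0.48. Counting error alone, as exact Poisson 95% intervals, gave 2.37 to 3.75 FPKM for Ctrl 2 and 1.65 to 2.83 FPKM for ZA 2, so that these 2 libraries could not be separated by their counts.

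**Figure D1:**
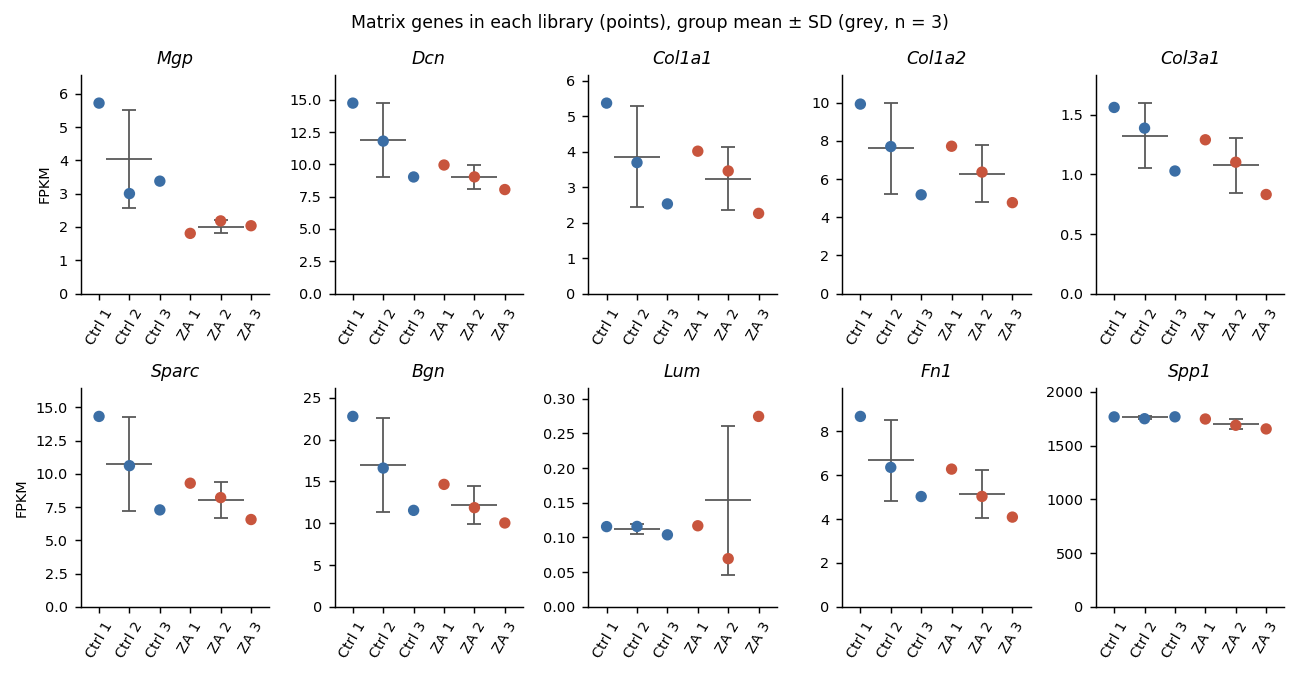
FPKM of each matrix gene in Ctrl 1 to 3 (blue) and ZA 1 to 3 (red), each panel on its own axis from 0, with the group mean and SD (n = 3) in grey. Ctrl 1 is the highest library for every gene but Lum and Spp1, and the groups overlap for every gene but Mgp (ZA 1.81 to 2.18 FPKM) and Spp1.

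Dcn encodes decorin, which binds collagen fibrils and growth factors. It was at 14.7, 11.8 and 9.02 FPKM in Ctrl and at 9.95, 9.03 and 8.05 FPKM in ZA, in the order of library numbers. Ctrl 3 lay just below ZA 2 and below ZA 1, so the groups overlapped. The ZA mean was 76.0% of the Ctrl mean (9.01 ± 0.949 against 11.9 ± 2.86 FPKM), and the log2 fold change was -0.34 ± 0.15 (SE), or -0.18 without Ctrl 1.

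The other proteoglycans differed in level. Bgn, the proteoglycan closest to decorin, had the highest level of the 8 stromal genes, at 22.8, 16.6 and 11.5 FPKM in Ctrl and 14.6, 11.9 and 10.03 FPKM in ZA. Ctrl 3 lay below ZA 1 and ZA 2, and the log2 fold change of -0.41 ± 0.21 (SE) did not pass the test (limma, adjusted p = 0.477). Without Ctrl 1 it was -0.19. Lum, which like decorin shapes collagen fibrils, was at 0.116, 0.116 and 0.104 FPKM in Ctrl and 0.117, 0.0695 and 0.274 FPKM in ZA, from 6 to 24 fragments. ZA 3 was the highest library for Lum and the lowest for Dcn. Lum is the next gene after Dcn in the RefSeq annotation of GRCm38.p6, and Kera, another proteoglycan gene of that stretch, was listed at 0 in all 6 libraries.

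The collagen chains were lower in ZA on average, but none passed the test. Col1a1 and Col1a2, the chains that assemble into type I collagen, were at 5.37, 3.69 and 2.53 FPKM and at 9.93, 7.70 and 5.18 FPKM in Ctrl. In ZA, Col1a1 was at 4.01, 3.46 and 2.26 FPKM and Col1a2 at 7.72, 6.36 and 4.77 FPKM. Within each group the highest library was about 1.6 to 2.1 times the lowest, a wider spread than the gap between the group means, which were 3.86 and 3.24 FPKM for Col1a1. The log2 fold changes were -0.18 ± 0.22 (SE, adjusted p = 0.784 by limma) for Col1a1 and -0.22 ± 0.21 (adjusted p = 0.713) for Col1a2. Without Ctrl 1 they were 0.04 and -0.03, and without ZA 3 that of Col1a1 was 0.00. The direction of Col1a1 between the group means thus did not hold when either library was left out. Within libraries of the same number Col1a1 was lower in ZA for all 3 numbers, with log2 ratios of FPKM of -0.42, -0.10 and -0.16. Col3a1, the type III collagen chain of reticular and young connective tissue, was at 1.56, 1.39 and 1.03 FPKM in Ctrl and 1.29, 1.10 and 0.831 FPKM in ZA (log2 fold change -0.16 ± 0.11, adjusted p = 0.570 by limma). It was -0.09 without Ctrl 1 and -0.08 without ZA 3.

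Sparc encodes osteonectin, a collagen-binding protein of bone and remodelling tissue. Its levels were 14.3, 10.6 and 7.29 FPKM in Ctrl and 9.29, 8.21 and 6.57 FPKM in ZA, with a log2 fold change of -0.35 ± 0.20 (SE) that did not pass the test (adjusted p = 0.531 by limma). Leaving out Ctrl 1 brought it to -0.13. For Fn1 the levels were 8.67, 6.35 and 5.02 FPKM in Ctrl and 6.27, 5.03 and 4.09 FPKM in ZA (log2 fold change -0.31 ± 0.18, adjusted p = 0.509, and -0.13 without Ctrl 1). Ctrl 3 lay just below ZA 2 for Fn1, as it did for Dcn.

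Spp1 behaved unlike the other genes. At a mean of 1763 ± 9.92 FPKM in Ctrl and 1698 ± 46.6 FPKM in ZA (SD, n = 3) it had by far the highest level of the 10 genes, with Bgn the next. It was at 1768, 1751 and 1769 FPKM in Ctrl and 1749, 1690 and 1656 FPKM in ZA, so that the groups did not overlap, though the 95% counting intervals of Ctrl 2 (1742 to 1761 FPKM) and ZA 1 (1739 to 1759 FPKM) did. The log2 fold change of -0.05 ± 0.02 (SE) had an unadjusted p-value of 0.0492 and an adjusted p-value of 0.401 by limma, and with quantile normalization its sign turned, to 0.03. It was the only one of the 7 tested genes other than Mgp and Dcn with an unadjusted p-value under 0.05, where 12.4% of all tested genes lay.

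**Figure D2:**
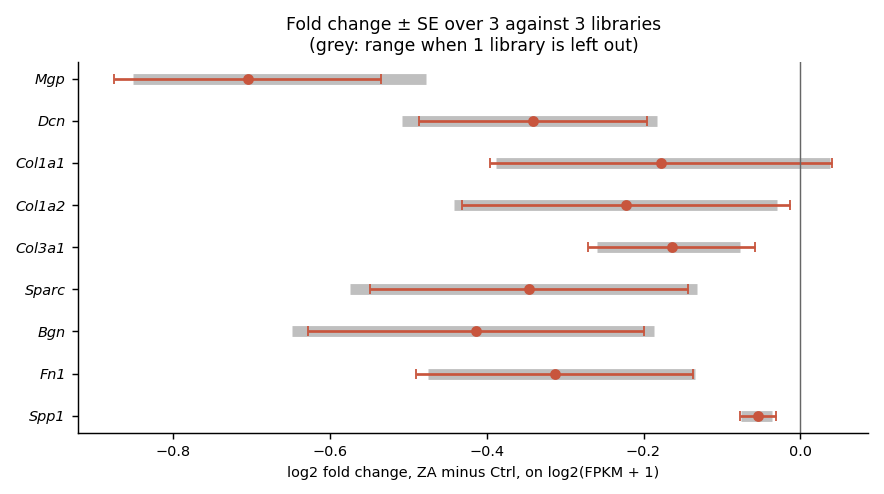
Log2 fold change of each tested matrix gene, ZA minus Ctrl on log2(FPKM + 1), as a point with its SE over 3 against 3 libraries, and in grey the range when 1 library is left out. All points lie below 0, from -0.71 for Mgp to -0.05 for Spp1 (0.03 with quantile normalization), and the grey range of Col1a1 reaches 0.04.

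Of the 7 tested genes other than Mgp and Dcn, all had a lower mean in ZA with FPKM as deposited, as had 43.1% of all tested genes, and 0 had an adjusted p-value under 0.05 by limma. With limma-voom on the recovered fragments the number was also 0. Their median log2 fold change was -0.22, against 0.01 over all tested genes. These genes share the same 6 libraries and vary together, so their common direction is not a set of separate observations.

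Within libraries of the same number the ZA library was below the Ctrl library for all 3 numbers in each of the 7 tested genes other than Mgp and Dcn, as in 15.2% of all tested genes, and also in Mgp and Dcn, which were picked for this direction. Among the 7 tested stromal genes and Fn1, with Lum left out, the log2 ratio of FPKM between ZA 1 and Ctrl 1 ran from -0.28 for Col3a1 to -1.66 for Mgp. The 5th percentile of all tested genes was -0.21 for number 1, and all 8 ratios were below it. Below that of their own number were 7 genes for number 2, all but Col1a1 and Spp1, and 3 genes for number 3 (Mgp, Col3a1 and Fn1). Between ZA 2 and Ctrl 2 the ratios ran from -0.10 for Col1a1 to -0.48 for Bgn. In the libraries numbered 3 the ratios were -0.12 for Col1a2, -0.15 for Sparc, -0.16 for Dcn and Col1a1, -0.20 for Bgn, -0.30 for Fn1, -0.31 for Col3a1 and -0.73 for Mgp. Spp1 had -0.02, -0.05 and -0.09 for numbers 1, 2 and 3 (its sign turned between the group means under quantile normalization), inside the 5th to 95th percentiles of all tested genes each time. The ratios themselves were not tested, and a fit with the library number as a block is given among the alternatives at the end.

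**Figure D3:**
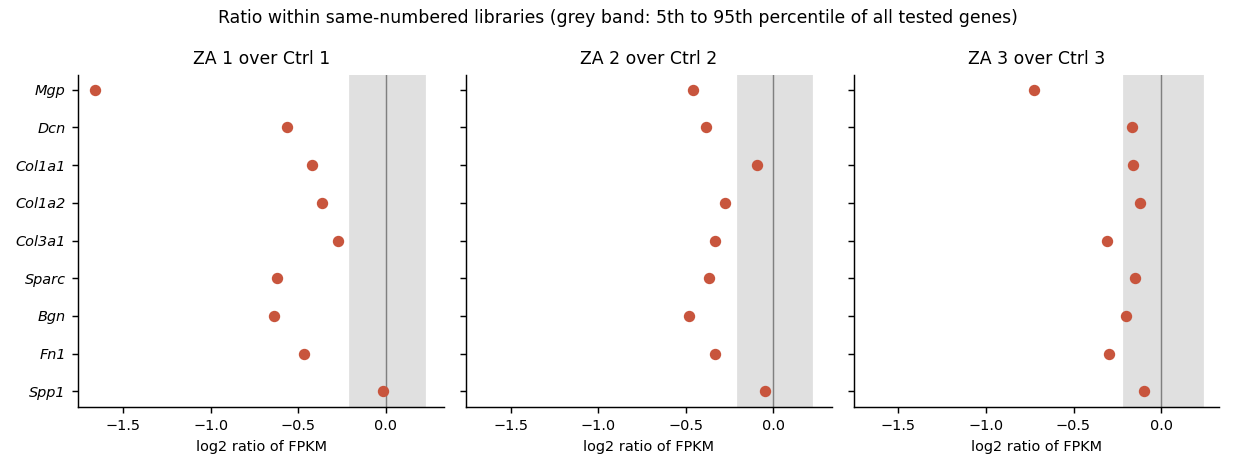
Log2 ratio of FPKM, ZA over Ctrl, between libraries of the same number (1 panel per number, 1 point per tested gene), with the 5th to 95th percentiles of all tested genes as a grey band. All points lie left of 0, and Spp1 is inside the band in each panel (with its group difference turned to 0.03 under quantile normalization). Mgp lies outside it each time at -1.66, -0.46 and -0.73, though its counts could not separate Ctrl 2 from ZA 2. Mgp and Dcn were picked for being lower in ZA, so nothing follows from their places.

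The matrix genes varied far more between libraries of 1 group than most genes did. Over the Ctrl libraries the highest value was a median of 1.90 times the lowest for the 9 tested genes and 1.07 times for all tested genes. Over the ZA libraries the medians were 1.46 and 1.07 times. Of all tested genes 196 had a Ctrl highest of at least 1.5 times the lowest, and 8 of the 9 tested matrix genes were among them, all but Spp1. In 7 of the 9 the spread was narrower in ZA than in Ctrl, as in 47.2% of all tested genes.

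This variation ran in parallel across the genes. Dcn, Col1a1, Col1a2, Col3a1, Sparc, Bgn and Fn1 were highest in the library numbered 1 and lowest in that numbered 3 in both groups, 7 of the 9 tested genes, while 6% of all tested genes showed this order. Mgp had it in neither group, and Spp1 only in ZA. The ratio of Col1a1 to Col1a2 stayed between 0.474 and 0.543 over the 6 libraries, although Col1a1 itself varied between 2.26 and 5.37 FPKM. In the same way Sparc stood at 0.628 to 0.692 of Bgn and Fn1 at 0.381 to 0.435 of Bgn. Mgp did not keep such a ratio, at 0.123 to 0.292 of Bgn, a 2.37-fold range. Fn1 thus went with the stromal genes over these libraries and not with Spp1, whose ratio to Fn1 ran from 204 to 405.

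The summed FPKM of the 8 stromal genes was 74.5, 54.9 and 40.1 in Ctrl 1, 2 and 3 and 48.8, 42.3 and 34.8 in ZA 1, 2 and 3. Ctrl 3 was below ZA 1 and ZA 2, so the sums overlapped, and the ZA mean was 74.3% of the Ctrl mean (42.0 ± 7.01 against 56.5 ± 17.3, SD, n = 3). Without Mgp and Dcn it was 76.2%. For each number the ZA sum was 65.5%, 77.0% and 86.9% of the Ctrl sum. The log2 ratio of the group means was -0.43, and -0.18 without Ctrl 1, the library with the highest sum. In RNA from a whole culture, fewer cells of a type and less RNA per cell cannot be told apart.

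The other collagens that passed the filter had the same order over the libraries. Of 27 listed, 7 passed the filter (Col4a1, Col4a2, Col5a2, Col6a1, Col6a2, Col12a1 and Col18a1), highest in number 1 and lowest in number 3 in both groups. All 7 had a lower mean in ZA (43.1% of all tested genes), with a median log2 fold change of -0.20. At an adjusted p-value under 0.05 (limma) 0 passed the test, with 2 lower at an unadjusted p-value under 0.05, where 4.85% of all tested genes lay. Col4a1, a basement membrane collagen, was at 3.30 ± 0.904 FPKM in Ctrl and 2.32 ± 0.245 FPKM in ZA (adjusted p = 0.369). Col6a1, a chain of the beaded filament collagen, had 3.58 ± 1.58 and 2.65 ± 0.506 FPKM (adjusted p = 0.635).

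Other proteoglycans and matrix glycoproteins were mostly below the filter. Of 57 listed, 10 passed the filter and 4 of these had the order from number 1 to number 3 (6% of all tested genes). Ecm1 and Emilin2 were at 64.0 ± 3.005 and 38.6 ± 0.618 FPKM in Ctrl and at 63.2 ± 3.51 and 39.3 ± 0.590 FPKM in ZA. Tgfbi, an integrin-binding matrix protein, was at 60.2 ± 0.682 FPKM in Ctrl and 68.1 ± 3.54 FPKM in ZA without overlap and did not pass the test (adjusted p = 0.110 by limma). In place of the 8 stromal genes, the sum of these collagens and glycoproteins was 283 FPKM in ZA and 287 FPKM in Ctrl, 98.6% of it, most of which came from the glycoproteins. The other collagens alone summed to 26.9, 21.5 and 15.8 FPKM in Ctrl and 19.5, 16.8 and 14.3 FPKM in ZA, whose mean was 78.7% of that of Ctrl.

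Among enzymes that fold and crosslink collagen, none passed the test. Of 17 tested, 11 had a lower mean in ZA (43.1% of all tested genes) and 6 a higher one. P3h1 and Plod3, named after their values were seen, were among these 6. The order was found in 7 (6% of all tested genes). One of these was Serpinh1, the collagen chaperone Hsp47 (9.69, 7.37 and 4.78 FPKM in Ctrl, 5.91, 5.16 and 3.99 FPKM in ZA, named after its values were seen). The most abundant, P4hb, which every cell uses in protein folding, was at 208 ± 1.66 and 198 ± 3.43 FPKM (adjusted p = 0.236). Of 15 tested proteases and inhibitors of matrix breakdown, 14 had a lower mean in ZA (43.1% of all tested genes), with a median log2 fold change of -0.13. At an unadjusted p-value under 0.05 by limma 6 were lower, where 4.85% of all tested genes lay. None of the 15 passed the adjusted test, and the most abundant, Ctsl, a lysosomal protease, was at 341 ± 15.9 FPKM in Ctrl and 312 ± 24.3 FPKM in ZA (adjusted p = 0.412).

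No receptor or signalling gene around the matrix passed the adjusted test by limma. Of 14 tested matrix receptors 4 were lower at an unadjusted p-value under 0.05 (4.85% of all tested genes) and 0 after adjustment, with the integrin chain Itgb1 at 137 ± 2.01 and 132 ± 0.368 FPKM in Ctrl and ZA (adjusted p = 0.319). In the list of gamma-carboxylation and BMP genes around Mgp, 20 were tested, 11 had a lower mean in ZA (43.1% of all tested genes) and the median log2 fold change was -0.01. Vkorc1, which recycles the vitamin K that Mgp needs for its carboxylation, was at 34.7 ± 0.737 FPKM in Ctrl and 34.3 ± 0.919 FPKM in ZA. Gas6, another carboxylated protein, was at 292 ± 9.56 and 309 ± 2.59 FPKM (adjusted p = 0.292), and 0 genes of the list passed. Of 14 tested TGF-beta genes 0 passed, 6 had the order from number 1 to number 3 (6% of all tested genes), and Tgfb1 was at 220 ± 1.995 and 223 ± 2.04 FPKM.

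The pattern most like that of Mgp, by the root mean square difference of log2(FPKM + 1) centred on each gene's mean over the 6 libraries, belonged to Mmp3, a stromal matrix protease, at 0.16. Tagln, Myl9 and Acta2, genes of the contractile apparatus of smooth muscle and myofibroblasts, and the chemokine gene Cxcl12 followed at 0.23. Mmp3 was at 2.61, 1.66 and 1.40 FPKM in Ctrl and 1.01, 1.05 and 1.08 FPKM in ZA. For Dcn the closest were Col4a1 (0.03), Ccn1 (0.04), and Ltbp2, Ccl2 and Acta2 (0.05 to 0.06). Dcn stood 20th for Mgp among the tested genes, while Mgp stood 4094th for Dcn, since many genes with little variation lie closer to Dcn than Mgp does. These likenesses rest on the libraries whose contrast picked Mgp and Dcn, and describe only their likeness over 6 libraries.

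Some markers of other cell types moved with the matrix genes. Of 30 stromal markers that are not matrix genes, 10 were tested, 8 had a lower mean in ZA (43.1% of all tested genes), 4 were lower at an unadjusted p-value under 0.05 (4.85% of all tested genes) and 0 passed the adjusted test by limma, with a median log2 fold change of -0.23. Igfbp7, a secreted binding protein of stromal and vascular cells, was at 17.5, 13.6 and 9.47 FPKM in Ctrl and 12.5, 10.6 and 8.05 FPKM in ZA. That order was found in 5 of the 10 (6% of all tested genes). The sum of the list was 158 to 178 FPKM in Ctrl and 159 to 162 FPKM in ZA, of which Igfbp4 alone, at 112 ± 1.04 and 116 ± 2.10 FPKM, made up most. Of 10 smooth muscle and pericyte markers only Acta2 and Tagln were tested, both had the order, and Acta2 was at 4.33, 3.13 and 2.66 FPKM in Ctrl and 2.64, 2.33 and 1.99 FPKM in ZA (adjusted p = 0.301). Their list summed to 6.38 to 10.4 FPKM in Ctrl and 4.45 to 6.62 FPKM in ZA, while Myh11, the myosin of mature smooth muscle, was between 0 and 0.0216 FPKM.

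Bone and fat markers gave little to compare. None of the 15 osteoblast and chondrocyte markers reached the filter, 5 of them were at 0 in every library, and their sum was 1.04 to 1.20 FPKM in Ctrl and 1.02 to 1.10 FPKM in ZA. The adipocyte list summed to 252 to 269 and 238 to 259 FPKM, nearly all of it Fabp4 and Pparg, which macrophages express, while Plin1, Lep and Retn were at 0 and Adipoq at no more than 1 fragment.

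Vessel markers were split. The 13 endothelial markers summed to 23.0 to 25.9 FPKM in Ctrl and 22.0 to 23.9 FPKM in ZA, most of it from Vwf (15.4 ± 0.222 and 15.7 ± 0.649 FPKM) and Kdr (3.57 ± 0.0374 and 3.76 ± 0.170 FPKM). Esam, the remaining tested one, had the order of the matrix genes and did not pass the test (adjusted p = 0.592 by limma). Kdr was higher in ZA without overlap. Of the 10 below the filter, which were not tested, 4 were lower in ZA without overlap (Cdh5, Tie1, Emcn and Robo4, named after their values were seen). Among tested genes 6.77% had all ZA libraries below all Ctrl libraries, and no share was taken for genes below the filter. The other markers below the filter overlapped, with lower ZA means for Egfl7, Ramp2, Cldn5 and Plvap and higher ones for Tek and Flt1. Cdh5, the cadherin of endothelial junctions, was at 0.993, 0.667 and 0.451 FPKM in Ctrl and 0.438, 0.244 and 0.270 FPKM in ZA, with its lowest Ctrl library just above its highest ZA library. Emcn, the sialomucin endomucin, was at 0.943, 0.554 and 0.535 FPKM in Ctrl and 0.378, 0.277 and 0.305 FPKM in ZA, from 17 to 58 fragments. For Tie1, an endothelial receptor kinase, the means were 0.427 ± 0.106 and 0.180 ± 0.0171 FPKM, and for Robo4, which had the order of the matrix genes, 0.146 ± 0.0544 and 0.0560 ± 0.0248 FPKM. Their part in the difference of the matrix genes was not tested.

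The 15 macrophage markers summed to 29480 to 33499 FPKM in Ctrl and 30518 to 34175 FPKM in ZA, lowest in number 1 and highest in number 3 in both groups. Lyz2 made up most of the sum, at 20472, 22545 and 24406 FPKM in Ctrl and 21272, 22833 and 24669 FPKM in ZA. Of the 15, 12 had a higher mean in ZA and 3 a lower one, where 43.1% of all tested genes had a lower mean. At an unadjusted p-value under 0.05 by limma 5 were higher, as were 7.52% of all tested genes. After adjustment 0 passed, and the median log2 fold change was 0.04. None of them had the order of the matrix genes, which 6% of all tested genes had. Over the libraries the summed smooth muscle markers thus ran with the matrix genes. The summed macrophage markers ran against them, but most of that sum was Lyz2. Only 3 of the 15 were lowest in number 1 and highest in number 3 in both groups (5.14% of all tested genes). The summed stromal markers ran with the matrix genes over a narrow range, but most of that sum was Igfbp4, which did not have the order. The part of these cells in the difference between the groups was not tested.

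**Figure D4:**
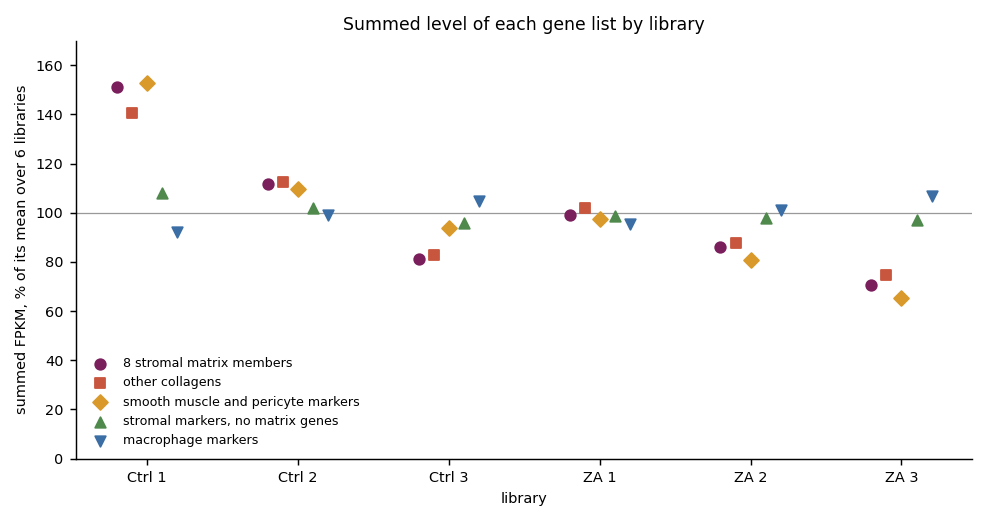
Summed FPKM of 5 gene lists in each library, as a percentage of the list's mean over the 6 libraries. The 8 stromal matrix genes, the other collagens and the smooth muscle markers are highest in Ctrl 1 and lowest in ZA 3 (for the stromal matrix genes 74.5 and 34.8 FPKM). The sum of the stromal markers that are not matrix genes stays close to its mean, but most of it is Igfbp4. Igfbp4 does not have the order of the matrix genes, while 5 of the 10 tested genes of that list do (6% of all tested genes). The sum of the macrophage markers, most of it Lyz2, is lowest in Ctrl 1 and highest in ZA 3.

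Over the whole table, 54 tested genes had a Ctrl highest of at least 1.5 times the lowest together with the order from number 1 to number 3 in both groups. Of these 54, 7 were among the 9 tested matrix genes above, and 31 in all were among those 9 and the 126 other tested genes of the lists.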

How the data were processed

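The authors deposited a table of FPKM values for 3 Ctrl and 3 ZA libraries of BMDMs, with 150 bp paired-end reads; the aligner, the counting program and the annotation are not given in the sources used here, and the submitters' processing notes name the build mm9. The labels name the VAHTS library kit and also a SMARTER kit. In all but 11 of 35434 rows the symbol and values are joined without separators. Their borders were found from how the numbers are printed, and from the fact that FPKM times gene length and library total must come to whole fragments. This restored 35246 rows with 96.3% to 96.5% of each library's fragments, and 188 were left out, Mmp14 among the listed genes. All 11 intact rows were read identically, and of 3000 simulated rows 2981 were restored exactly, 0 wrongly. Tested genes had a median of 1389.5 fragments per library, and 3 fragments at their median length give 0.0210 FPKM.

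Groups and numbers came from the labels. Values were compared as log2(FPKM + 1), pseudocount 1, with limma 3.58.1 in R 4.3.3 (lmFit, eBayes, trend in the variance prior, two-sided) in the 9753 genes whose mean reached 1 FPKM, with Benjamini-Hochberg adjustment. On simulated data with 200 of 9753 genes changed 2-fold, 99% of them were called, with 9 unchanged genes. The tested matrix genes differed by less than this, and most varied more between libraries than most genes. The 99% therefore does not tell how often changes of their size would be called. Libraries of 1 group differed by more than sampling noise (chi-square per gene 3.51 to 9.54). Intervals cover counting error only. The genes and lists were chosen with earlier results of these data known. Named are all 10 members, genes from the 3 most abundant of each list, the 5 genes nearest in pattern to Mgp and to Dcn, marker genes that define a cell type, and genes said to be named after their values were seen. Python 3.11.15, NumPy 2.4.6, pandas 2.3.3 and Matplotlib 3.10.9 were used.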

Additional observations from a re-analysis of the deposited data

How the results depend on the processing

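Over up to 14 alternatives each, the log2 fold changes of the 7 tested genes other than Mgp and Dcn gave 96 values, of which 93 were lower in ZA and 1 passed the threshold. The exceptions in direction were Col1a1 without Ctrl 1 or ZA 3 (-0.39 to 0.038 over the libraries left out), and Spp1 with quantile normalization (0.030). Leaving out 1 library gave -0.85 to -0.48 for Mgp and -0.51 to -0.18 for Dcn. The number of genes called (36) was 1 with no filter and 1 without a trend, 21 with quantile normalization, 123 with limma-voom on recovered fragments, and 0 to 25 when 1 library was left out. The numbers in the labels were checked by correlating, across genes, how far libraries of 1 number lay from their group means, which was 0.28, 0.04 and 0.28. Number 2 was below 0.1, so the libraries were taken to share only a number. With the replicate block 78 genes were called, 37 of them lower, and Fn1 was called at an adjusted p of 0.0433 with its log2 fold change of -0.31. Among the other tested matrix genes, Mgp and Dcn left out, Bgn came nearest (adjusted p = 0.060 by limma) and was not called. Every library correlated best with its own number, a hint from the data and not the design. The log2 ratio of the summed stromal genes was -0.43, and -0.021 with the other matrix genes in their place, by the choice of other genes. It was -0.62 to -0.18 without 1 library, an alternative added after the data had been seen. Depth limits Lum, at 6 to 24 fragments, and Mgp. For the other changes the cause was not tested.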
